A study of Mus musculus with 6 samples.

Results

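Entry into mitosis is driven by CDK1, a kinase that works only when bound to a cyclin, and the 10 genes described here encode that kinase, its cyclins and the enzymes that switch it on and off. They are the cyclin genes Ccna2, Ccnb1 and Ccnb2, the kinase gene Cdk1, the activating phosphatase genes Cdc25a, Cdc25b and Cdc25c, the inhibitory kinase genes Wee1 and Pkmyt1, and the Polo-like kinase gene Plk1. The members were taken by gene symbol from the gene tables of the study, and all 10 were found among 35976 genes and passed the filter on low counts. RNA-seq was performed on satellite cells, the stem cells of adult skeletal muscle, cultured in growth medium, with 3 libraries from mice labelled NF-YA cKO and 3 from the NF-YA fl/fl genotype (cKO and fl/fl below). NF-YA is the regulatory and DNA-contacting subunit of NF-Y, a trimeric transcription factor that binds the CCAAT box of many cell cycle promoters.

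Both genotypes carry Nfya alleles flanked by loxP sites and both received tamoxifen, according to the methods as 0.1 mg per g of body weight in 5 daily injections. The cKO mice carry in addition Pax7-CreERT2, a tamoxifen-inducible Cre driven by the Pax7 gene, so that recombination is directed to Pax7-expressing cells, and the controls are described as fl/fl only. The labels give an age of 5 to 7 weeks for both groups and the methods 6 to 8 weeks. Neither source says whether each library came from one animal or from a pool. The edgeR p-values set the genotype difference against the variation between these libraries. The libraries held 26936230 to 41118984 expected counts. Reads of the deleted Nfya transcript made up 22.3% to 34.2% of Nfya counts in the cKO libraries and none in the fl/fl libraries. This share of reads does not give the share of recombined cells. Total Nfya, which includes those reads, did not pass the test (log2 fold change -0.06 ± 0.18 SE, edgeR FDR = 0.814). The methods describe male mice. Xist, the RNA that coats the inactive X chromosome, was at 843 ± 8.35 CPM in cKO libraries and 0.389 ± 0.0846 CPM in fl/fl libraries (SD, n = 3), while the Y-linked gene Ddx3y was at 84.9 ± 3.82 CPM in fl/fl libraries and 0.0636 ± 0.0277 CPM in cKO libraries. Sex-linked expression therefore differed together with genotype in every library, and the parts of both in the results cannot be told apart.

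During interphase WEE1 and PKMYT1 (also known as MYT1) add inhibitory phosphates to CDK1, and CDC25 phosphatases remove them. Cyclin A2 accumulates from S phase onwards, whereas cyclins B1 and B2 accumulate towards mitosis and form the mitotic complex with CDK1. PLK1 helps to activate CDC25C and to target WEE1 for destruction, so the switch reinforces itself. Cycling myoblasts express these genes, and their transcripts are lost when the cells leave the cycle to form myotubes.

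Promoter sequences are shown first because NF-Y reads the CCAAT box. RefSeq promoter entries of GRCm38.p6, the assembly called mm10 in the processing notes, were matched for 6 of the 10 genes (Ccnb1, Ccnb2, Cdk1, Cdc25a, Cdc25b and Plk1). Positions are counted from the start annotated in each promoter entry. For Cdc25a and Cdc25b this start lies inside the gene, whose first annotated base is at chr9:109875518 and chr2:131186436. Each line below gives the 140 bases before the annotated start, 5′ to 3′ on the strand of the gene, with capitals for every CCAAT or its reverse complement ATTGG and every TTTGAA or its reverse complement TTCAAA. The motif TTTGAA, as part of a longer element, is the core of the CHR, the cell cycle genes homology region, which is known from promoters active in G2 and mitosis. The coordinates are chr13:100786487-100786626 on the minus strand for Ccnb1, chr9:70421555-70421694 on the minus strand for Ccnb2, chr10:69352913-69353052 on the minus strand for Cdk1, chr9:109875439-109875578 on the plus strand for Cdc25a, chr2:131186808-131186947 on the plus strand for Cdc25b and chr7:122159295-122159434 on the plus strand for Plk1.
Ccnb1: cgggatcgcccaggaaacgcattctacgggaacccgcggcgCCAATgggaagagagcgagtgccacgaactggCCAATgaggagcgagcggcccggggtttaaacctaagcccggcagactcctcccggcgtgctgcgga
Ccnb2: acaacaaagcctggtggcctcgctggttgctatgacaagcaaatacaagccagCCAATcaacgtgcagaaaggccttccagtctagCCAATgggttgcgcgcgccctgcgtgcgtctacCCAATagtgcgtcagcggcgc
Cdk1: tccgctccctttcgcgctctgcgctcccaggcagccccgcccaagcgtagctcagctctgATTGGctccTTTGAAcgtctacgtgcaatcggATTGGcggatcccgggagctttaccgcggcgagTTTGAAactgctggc
Cdc25a: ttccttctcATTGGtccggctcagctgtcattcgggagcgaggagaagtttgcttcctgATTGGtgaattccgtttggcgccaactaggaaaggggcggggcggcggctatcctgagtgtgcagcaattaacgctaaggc
Cdc25b: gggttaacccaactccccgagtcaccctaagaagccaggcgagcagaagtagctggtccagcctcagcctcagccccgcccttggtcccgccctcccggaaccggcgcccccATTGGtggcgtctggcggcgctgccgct
Plk1: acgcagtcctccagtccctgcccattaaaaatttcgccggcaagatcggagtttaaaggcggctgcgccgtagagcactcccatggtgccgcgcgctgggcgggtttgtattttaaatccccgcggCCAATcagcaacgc

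In the whole window of 250 bases before to 50 after the start, searched on both strands, all 6 promoters held at least 1 CCAAT, compared with 37.41% of the 32851 mouse promoters in the same table. At least 2 were found in 4 of the 6 (Ccnb1, Ccnb2, Cdk1 and Cdc25a), compared with 11.7% of all promoters. The first bases of the motifs lay 32 bases apart in Ccnb1, at -99 and -67, and 33 bases apart in Ccnb2, at -87, -54 and -21. Cdk1 held its motifs at -208, -80 and -48, all on the opposite strand, and the last pair was again 32 bases apart. The pair in Cdc25a was at -131 and -81, a spacing of 50 bases. Cdc25b and Plk1 held a single motif each, at -28 and -14. TTTGAA was present in 3 of the 6 promoters, at -71 and -15 in Cdk1, at -167 and 5 in Ccnb2 and at 31 in Plk1, of which the last 3 lie outside the bases printed, compared with 17.89% of all promoters. The motifs do not overlap each other in their letters, and a match describes the sequence only.

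**Figure D1:**
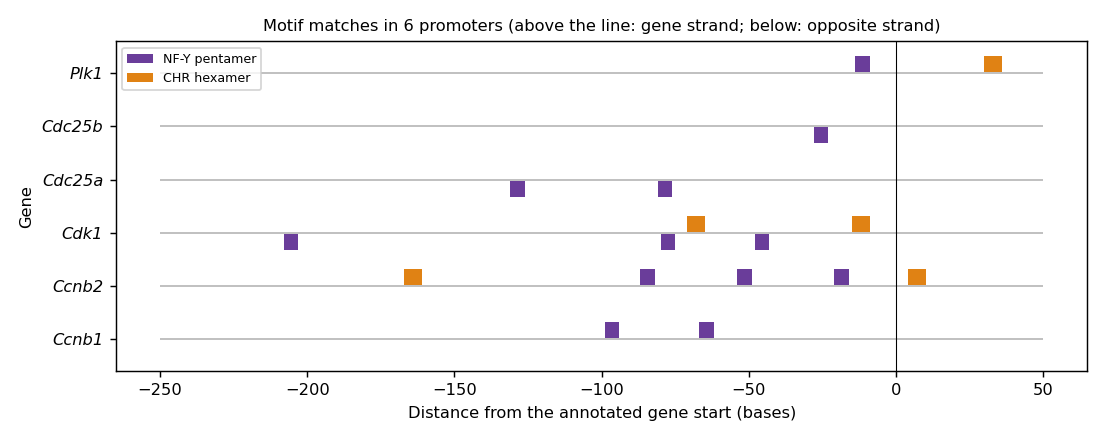
Position of motif matches (x axis, bases from the start annotated in each promoter entry) in 6 genes (y axis), with CCAAT in purple and TTTGAA in orange. For Cdc25a and Cdc25b that start lies inside the gene. Boxes above a line are on the strand of the gene and boxes below it on the opposite strand; Ccnb2 and Cdk1 hold 3 CCAAT each, spaced by 32 or 33 bases in all neighbouring pairs but the one from -208 to -80 in Cdk1.

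All 10 genes had a higher mean in cKO than in fl/fl cells, and 6 of them rose. A gene was called by the thresholds of the study, a log2 fold change beyond 1 in size and an FDR below 0.01, here from edgeR. The study itself took its FDR from DESeq2, which is given here as an alternative. The risers were Ccna2, Ccnb1, Ccnb2, Cdk1, Pkmyt1 and Plk1, with log2 fold changes of 1.06 to 1.46, and none of the 10 fell (edgeR and DESeq2, and 0 at an unadjusted p under 0.05). Among all 17348 genes tested, 4.65% rose and 7.67% fell by the same thresholds. On the FDR alone 8 of the 10 rose, compared with 10.3% of all tested genes. Over the 10 genes the log2 fold change had a median of 1.07, compared with -0.02 over all tested genes. It was above 0 for all 10, compared with 49.0% of all tested genes. In 9 of the 10 every cKO library was above every fl/fl library in CPM, which held for 29.1% of all tested genes. In bulk RNA, more cells that express a gene and more RNA per cell cannot be told apart.

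The calls depended on which libraries were included. Without any 1 of the 3 cKO libraries, or without fl/fl replicate 1, edgeR called 0 of the 10 genes. In each of these fits 8 of the 10 had an FDR under 0.05 and 9 an unadjusted p under 0.05. Over all tested genes edgeR called 283, 177 and 279 risers without cKO replicates 1, 2 and 3, against 806 with every library. Without fl/fl replicate 1 it called 298. Of the 10 genes, edgeR called 7 without fl/fl replicate 2 and 6 without replicate 3. Limma on log2(TPM + 1) and on log2(TPM + 0.1) called 0 of the 10, with all 10 at an unadjusted p under 0.05. Such a p was common, at 8449 of all 17348 tested genes in the main edgeR fit. DESeq2 called 7, with Cdc25c added (FDR = 0.000591). The direction was positive for all 10 genes in all 16 alternatives.

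**Figure D2:**
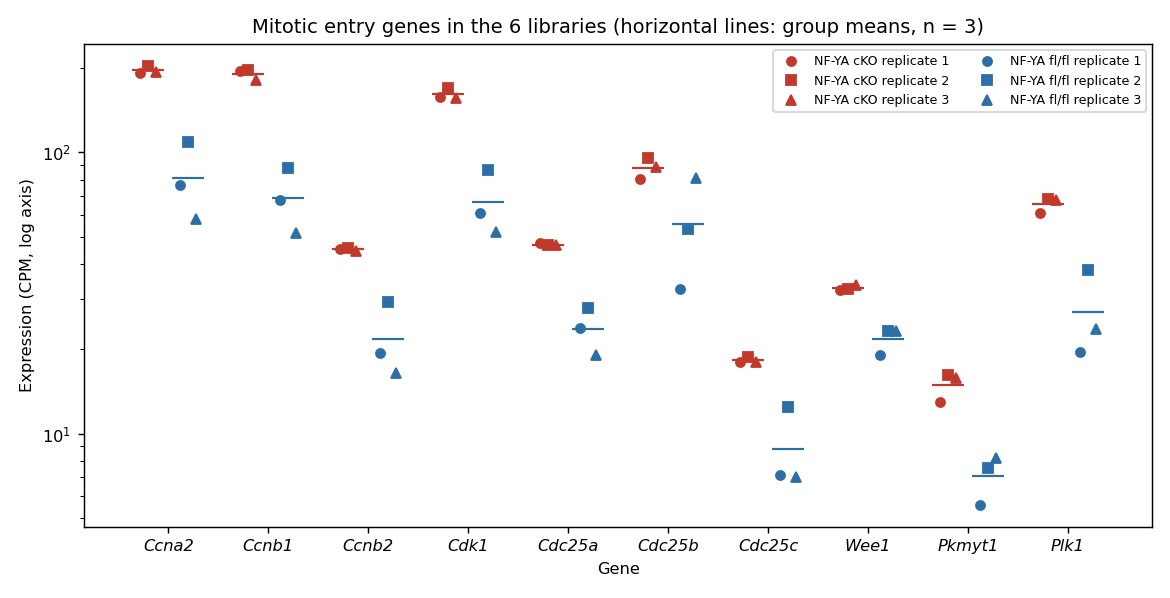
Expression in library-scaled counts (CPM, log axis) of the 10 genes (x axis) in each of the 6 libraries, with cKO in red, fl/fl in blue, symbols for replicates and horizontal lines for group means (n = 3). The red points lie above the blue points for all genes but Cdc25b, where fl/fl replicate 3 (81.1 CPM) lies just above cKO replicate 1 (80.7 CPM).

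Among the cyclins Ccnb1, the main partner of CDK1 in mitosis, was at 194, 196 and 181 CPM in the cKO libraries and at 67.6, 88.0 and 51.6 CPM in the fl/fl libraries, in the order of the replicate numbers. The groups were far apart, and fl/fl replicate 3 was the lowest library. Ccnb1 rose 2.75-fold (log2 fold change 1.46 ± 0.19 SE, 95% interval 1.01 to 1.91, FDR = 0.00185), which was the highest fold of the 10 genes.

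Ccnb2 encodes the B-type cyclin that resides mainly at the Golgi and is dispensable for mouse development. Its level was 45.2, 45.8 and 44.6 CPM in cKO libraries and 19.3, 29.4 and 16.4 CPM in fl/fl libraries. The groups did not overlap, with the cKO libraries almost level and fl/fl replicate 2 above the other two controls. The log2 fold change was 1.06 ± 0.21 (SE, 95% interval 0.55 to 1.56, FDR = 0.00888), close to both thresholds, and the call was kept in 6 of the 16 alternatives.

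Ccna2 encodes cyclin A2, which pairs with CDK2 in S phase and with CDK1 in G2. It was at 192, 203 and 193 CPM in cKO libraries and at 76.7, 109 and 57.9 CPM in fl/fl libraries. Again the groups were apart and fl/fl replicate 2 was the highest control. Ccna2 rose by a log2 fold change of 1.27 ± 0.22 (SE, 95% interval 0.75 to 1.79, FDR = 0.00501).

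Cdk1, the kinase itself, was at 158, 170 and 156 CPM in cKO libraries and at 61.0, 86.4 and 52.0 CPM in fl/fl libraries. The lowest cKO library was above the highest fl/fl library. The rise was 2.43-fold (log2 fold change 1.28 ± 0.19 SE, 95% interval 0.84 to 1.72, FDR = 0.00281).

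The 3 Cdc25 phosphatase genes differed in how clearly they separated the genotypes. Cdc25a, whose product acts in both S phase and mitosis entry and is destroyed after DNA damage, was at 47.6, 46.9 and 46.7 CPM in cKO libraries and at 23.7, 28.0 and 19.1 CPM in fl/fl libraries. It passed the FDR threshold but lay just under the fold threshold (log2 fold change 0.99 ± 0.15 SE, 95% interval 0.64 to 1.34, FDR = 0.0029). Cdc25c, which encodes the phosphatase activated by PLK1 at mitosis, was at 18, 18.8 and 17.9 CPM against 7.11, 12.4 and 7.02 CPM. Its groups did not overlap, and its log2 fold change of 1.04 ± 0.24 (SE, 95% interval 0.48 to 1.6) had an FDR of 0.0143, above the threshold.

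Cdc25b, whose product is thought to start CDK1 activation at the centrosome, was the gene whose groups overlapped in CPM. It was at 80.7, 95.5 and 88.7 CPM in cKO libraries and at 32.6, 53.5 and 81.1 CPM in fl/fl libraries. fl/fl replicate 3, which was the lowest control for 6 of the other genes, was the highest for Cdc25b and lay within the cKO range. In TPM the groups of Cdc25b were apart, at 31.7, 31.9 and 33.7 in cKO libraries and at 12.6, 25.4 and 26.1 in fl/fl libraries, with fl/fl replicates 2 and 3 nearly level. The log2 fold change was 0.66 ± 0.30 (SE, 95% interval -0.05 to 1.37, FDR = 0.122) and did not pass. Without fl/fl replicate 3 it was 1.03 (FDR = 0.0063), and without fl/fl replicate 1 it was 0.38 (FDR = 0.194).

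Of the kinases that hold CDK1 inactive, Wee1, the nuclear one, was at 32.3, 32.6 and 33.7 CPM in cKO libraries and at 19.0, 23.1 and 23.1 CPM in fl/fl libraries. The groups were apart in CPM, whereas in TPM fl/fl replicate 2 (9.72) was level with cKO replicate 2 (9.7). The log2 fold change of 0.60 ± 0.11 (SE, 95% interval 0.33 to 0.86, FDR = 0.00707) was the lowest of the 10 genes and its interval lay below the fold threshold. Pkmyt1, the membrane-bound one, was at 12.9, 16.1 and 15.8 CPM in cKO libraries and at 5.58, 7.52 and 8.18 CPM in fl/fl libraries. Pkmyt1 thus did not overlap between genotypes and rose by a log2 fold change of 1.07 ± 0.19 (SE, 95% interval 0.63 to 1.52, FDR = 0.00533).

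Plk1 was at 60.9, 68.4 and 67.5 CPM in cKO libraries and at 19.5, 38.3 and 23.5 CPM in fl/fl libraries. fl/fl replicate 2 was again the highest control and still below every cKO library. Plk1 rose 2.42-fold (log2 fold change 1.27 ± 0.24 SE, 95% interval 0.70 to 1.85, FDR = 0.00736).

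In the annotation 6 of the 10 genes overlap a gene on the opposite strand: Ccna2 with Exosc9, Cdc25b with Spef1, Cdc25c with Gm3550, Wee1 with 1600010M07Rik, Pkmyt1 with Paqr4 and Plk1 with Gm44985. The library kit marks strand, but the strand setting of the quantification is not given in the sources used here, so reads of the overlapping parts may not be told apart. Ccnb1 and Ccnb2 also have annotated pseudogenes, Ccnb1-ps and Ccnb2-ps, and near-identical reads could have been assigned to the genes.

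**Figure D3:**
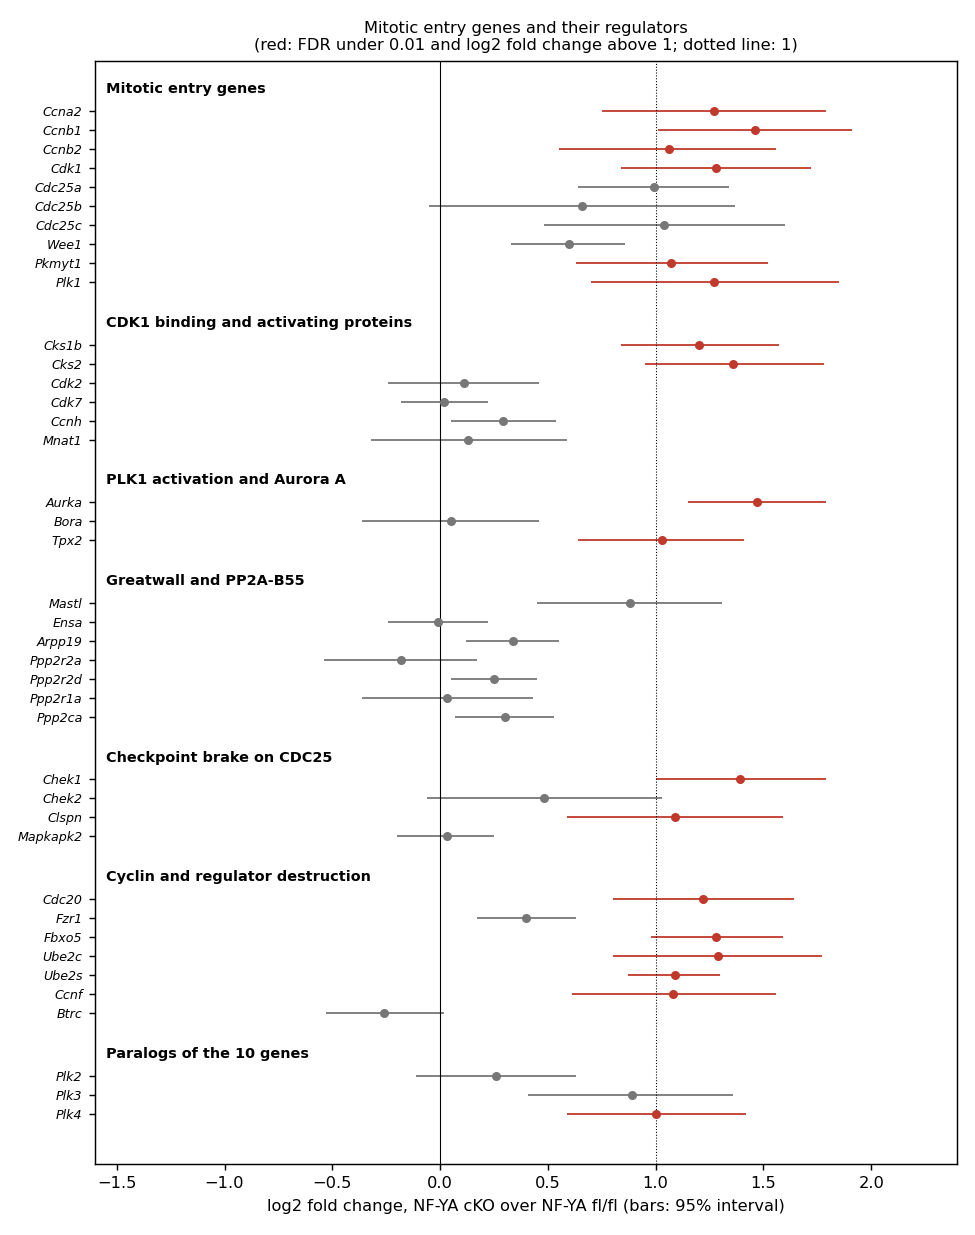
Log2 fold change of cKO over fl/fl (x axis) with its 95% interval for the 10 mitotic entry genes and the 30 tested genes of 6 regulator lists (y axis). Red marks the 6 and 12 genes that passed both thresholds, and the genes of the Greatwall and PP2A-B55 list are all grey.

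The spread between libraries differed by genotype. The coefficient of variation over the 3 libraries had a median of 3.64% for the 10 genes in cKO (range 1.02% to 11.7%) and of 29.3% in fl/fl (range 10.8% to 43.7%). Over all tested genes the medians were 7.97% and 20.7%. fl/fl replicate 2 had the highest control value for 8 of the 10 genes, compared with 35.7% of all tested genes, and replicate 3 had the lowest for 6, compared with 38.0%. Relative to the cKO mean of each gene, the median log2 level over the 10 genes was -1.38 in fl/fl replicate 1, -0.76 in replicate 2 and -1.42 in replicate 3, while the cKO libraries lay between -0.03 and 0.05. fl/fl replicate 2 thus stood nearer to the cKO level than the other controls.

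**Figure D4:**
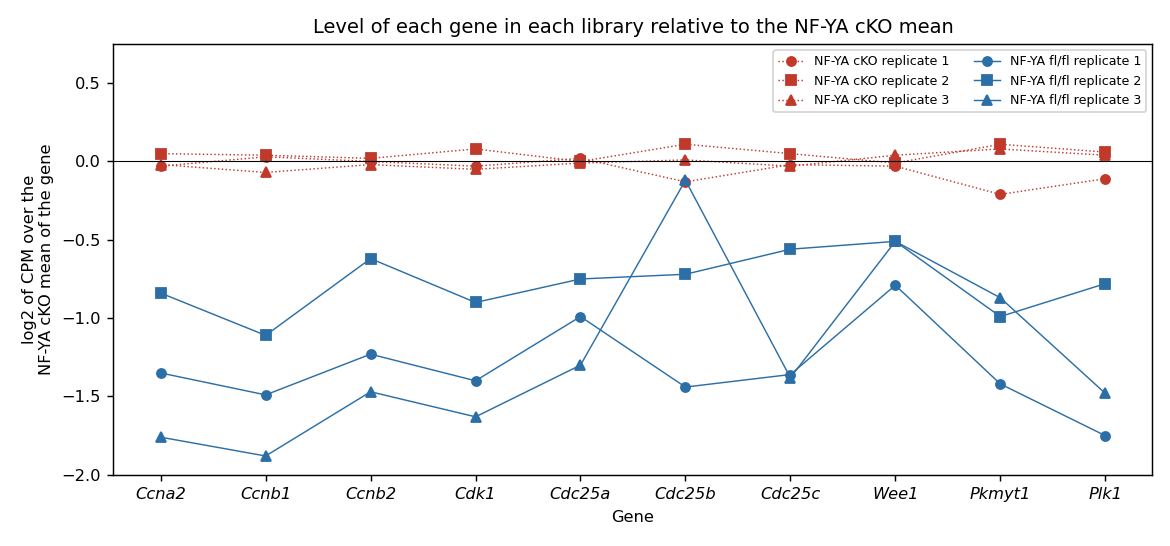
Log2 of CPM in each library over the cKO mean of the same gene (y axis) for the 10 genes (x axis), with cKO in red and fl/fl in blue. fl/fl replicate 2 (squares) lies closest to the cKO level for most genes, and replicate 3 (triangles) departs upwards at Cdc25b.

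Levels between genes were compared in TPM, which is scaled to transcript length. In cKO cells Ccnb1 was highest at 94.3 ± 7.39 TPM, followed by Ccna2 at 78.8 ± 4.2 and Cdk1 at 63.7 ± 2.76 TPM (SD, n = 3). These were followed by Ccnb2 at 35.1 ± 2.6, Plk1 at 34.1 ± 1.94 and Cdc25b at 32.4 ± 1.11 TPM, whose neighbouring ranges overlapped. Cdc25a was at 14.3 ± 1.3 TPM, and Cdc25c (11.7 ± 0.874), Wee1 (10.8 ± 0.955) and Pkmyt1 (9.02 ± 0.749) closed the order with overlapping ranges. In fl/fl cells the order began with Ccnb1 at 37.9 ± 17.0, Ccna2 at 36.4 ± 18.3 and Cdk1 at 29.1 ± 13.3 TPM and ended with Pkmyt1 at 4.64 ± 1.27 TPM. There the ranges of all neighbouring genes overlapped, and Cdc25b (21.3 ± 7.58 TPM) came before Ccnb2 (18.7 ± 9.52 TPM).

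Ratios within a library compare opposing enzymes without reference to the other libraries. The summed TPM of the Cdc25 genes over that of Wee1 and Pkmyt1 was 3.01, 3.01 and 2.84 in cKO libraries and 2.48, 2.96 and 3.18 in fl/fl libraries. Activating and inhibitory transcripts thus kept overlapping ratios (difference 0.05 on the log2 scale, exact permutation p = 0.8, adjusted p = 0.8 over 4 ratios). Cdc25b had the highest TPM of the Cdc25 genes in both genotypes, so it weighs most in this sum. With the mean of log2 TPM per gene in place of the sum, the difference was 0.12. Ccnb1 over Ccnb2 was 2.73, 2.72 and 2.60 in cKO libraries and 2.24, 1.91 and 2.02 in fl/fl libraries. This ratio did not overlap between genotypes, with a log2 difference of 0.39 (exact permutation p = 0.1, adjusted p = 0.2). The smallest two-sided p that 3 libraries against 3 can give is 0.1, so no ratio could pass. Ccna2 over Ccnb1 and Ccnb2 was 0.588, 0.616 and 0.626 against 0.637, 0.659 and 0.609, and overlapped (log2 difference -0.06, exact permutation p = 0.3, adjusted p = 0.4).

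S phase genes served as a reference for cells that are in the cycle. The list of 12, called S phase genes for short, held the general proliferation marker Mki67 besides genes of DNA replication such as Pcna and the Mcm helicase subunits. Of the 12, 9 rose, compared with 4.65% of all tested genes. The median log2 fold change was 1.34, compared with -0.02 over all tested genes. The summed TPM of the 12 was 949 to 1040 in cKO libraries and 308 to 639 in fl/fl libraries. fl/fl replicate 2 was the highest control for 12 of the 12, compared with 35.7% of all tested genes. The 10 mitotic entry genes over these 12 gave TPM ratios of 0.385, 0.381 and 0.375 in cKO libraries and 0.421, 0.428 and 0.417 in fl/fl libraries. The groups were apart (log2 difference -0.15, exact permutation p = 0.1, adjusted p = 0.2), but with expected counts in place of TPM the difference was 0.01.

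**Figure D5:**
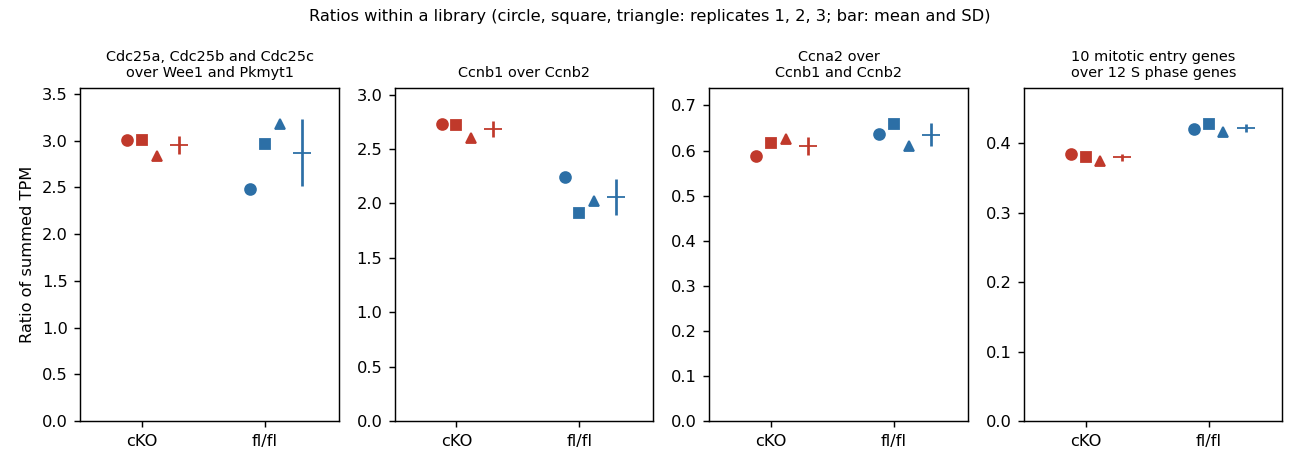
Ratios of summed TPM within each library (y axes, each from 0) for cKO in red and fl/fl in blue, with bars for mean and SD (n = 3). Ccnb1 over Ccnb2 and the 10 genes over the S phase genes are apart between genotypes, while the other ratios overlap.

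Of the 10 genes, 6 have more than 1 annotated transcript in the files. The share of the main transcript, the one with the highest TPM over all 6 libraries, overlapped between genotypes for all 6 (exact permutation adjusted p of 0.84 to 0.9). As for the ratios, 3 libraries against 3 could not give a p low enough to pass. The test therefore cannot decide whether the shares were equal. The main Cdc25b transcript made up 69.2% ± 2.14 of the gene in cKO and 68.3% ± 9.81 in fl/fl (SD, n = 3). For Pkmyt1 the transcript with the highest TPM over all libraries, NM_023058.3, made up 50.9% ± 11.3 in cKO and 43.9% ± 15.3 in fl/fl. Another, XM_006524310.2, made up 37.0% ± 14.4 and 50.6% ± 9.71, and was the larger of the pair in cKO replicate 1 and in fl/fl replicates 2 and 3.

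Regulators around the switch were described in 6 lists of 34 genes in all. Of the 30 tested, 12 rose, compared with 4.65% of all tested genes. None fell (0 at an unadjusted p under 0.05 and 0 in DESeq2). The log2 fold change was above 0 for 27 of the 30, compared with 49.0% of all tested genes, and the median was 0.44. Without any 1 of the cKO libraries or fl/fl replicate 1, 3 or 4 of the 30 rose, and without fl/fl replicates 2 and 3 in turn 14 and 8 rose. The 4 untested genes, Ccna1, Ccnb3, Wee2 and Plk5, are paralogs known mainly from the germline or other tissues and were at most at 0.102 CPM in any library.

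Among the proteins that bind or activate CDK1, 2 of 6 rose. Cks1b and Cks2 encode the small subunits that dock CDK complexes on phosphorylated substrates, and they had log2 fold changes of 1.2 ± 0.15 and 1.36 ± 0.18 (SE, FDR = 0.0017 and 0.00179). Cks1b also had the highest TPM of this list. The CDK-activating kinase genes Cdk7, Ccnh and Mnat1 had log2 fold changes of 0.02, 0.29 and 0.13, and Cdk2, the S phase kinase gene, of 0.11. None of these 4 passed the test.

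Of the genes that activate PLK1, Aurka, which encodes the Aurora A kinase, rose from 26.8, 36.4 and 28.1 CPM in fl/fl to 81.5, 88.3 and 83.8 CPM in cKO libraries. This was the most stable call of the regulators, kept in 15 of 16 alternatives (log2 fold change 1.47 ± 0.13 SE, FDR = 0.000567). Tpx2, which encodes the microtubule protein that binds Aurora A, rose by 1.03 ± 0.16 on the log2 scale (FDR = 0.00366) and had the highest TPM of its list. Bora, whose product presents PLK1 to Aurora A, was at 0.05 ± 0.17 and did not pass (FDR = 0.836).

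The products of the Greatwall and PP2A-B55 list restrain the phosphatase that opposes CDK1 or belong to it. Of its 7 genes, 0 passed both thresholds in edgeR, 0 in DESeq2 and 0 in limma. An unadjusted edgeR p under 0.05 was found for 4 of the 7, compared with 8449 of all 17348 tested genes. Mastl, the Greatwall kinase gene, had a log2 fold change of 0.88 ± 0.18 and an FDR of 0.00972, so that it missed on fold only. Ppp2ca, a catalytic subunit gene with the highest TPM of the list, was at 0.30 ± 0.10 (FDR = 0.0456), and Ensa, a Greatwall substrate gene, was at -0.01 ± 0.10 (FDR = 0.931).

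The checkpoint that blocks CDC25 after replication stress held 2 risers among 4 genes. Chek1, the kinase gene, was at 34.2, 34.5 and 32.4 CPM in cKO libraries and at 12.7, 15.6 and 10.1 CPM in fl/fl libraries (log2 fold change 1.39 ± 0.17 SE, FDR = 0.00146). Clspn, which encodes the claspin adaptor of that kinase, rose by 1.09 ± 0.21 (FDR = 0.0075). Chek2 (0.48 ± 0.23, FDR = 0.141) and Mapkapk2 (0.03 ± 0.10, FDR = 0.853), which had the highest TPM of this list, did not pass.

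The destruction of cyclins and regulators held the most risers, 5 of 7 genes. Cdc20, the mitotic activator gene of the anaphase-promoting complex, rose by 1.22 ± 0.18, and its ubiquitin-conjugating enzyme genes Ube2c and Ube2s rose by 1.29 ± 0.20 and 1.09 ± 0.09 (SE, log2 scale, FDR = 0.00267, 0.00375 and 0.000429). Ube2s had the highest TPM of the list. Fbxo5, which encodes the complex's inhibitor EMI1, rose by 1.28 ± 0.13, and Ccnf, which encodes cyclin F, rose by 1.08 ± 0.20 (FDR = 0.000771 and 0.00652). Fzr1, the activator gene used in late mitosis and G1, was at 0.40 ± 0.10 (FDR = 0.0168), and Btrc, whose product marks WEE1 and EMI1 for destruction, was at -0.26 ± 0.12 (FDR = 0.121). Neither passed.

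Among the 3 tested paralogs Plk4, the kinase gene of centriole duplication, rose by a log2 fold change of 1.0 ± 0.17 (FDR = 0.00525). It lay on the fold threshold, and the call was kept in 5 of 16 alternatives and not in DESeq2, which called 0 of the paralogs. Plk3 was at 0.89 ± 0.20 (FDR = 0.0136) and Plk2, with the highest TPM of the list, at 0.26 ± 0.16 (FDR = 0.233). The latter overlapped between genotypes, at 265 to 342 CPM in cKO and 210 to 297 CPM in fl/fl libraries.

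The genes whose log2 CPM followed that of Cdk1 most closely over the 6 libraries were Exo1, Dek and Ube2c, with Pearson correlations of 0.9999, 0.9997 and 0.9995. Exo1 encodes a DNA repair exonuclease and Dek a chromatin protein. The points fall in the groups of the genotypes, which set much of any such correlation, and 19.3% of the 9456 other genes with at least 10 CPM on average had a correlation above 0.9 with Cdk1. The other members had 0.997 (Ccna2 and Ccnb1), 0.994 (Cdc25a), 0.993 (Ccnb2), 0.985 (Cdc25c), 0.973 (Plk1), 0.923 (Wee1), 0.898 (Pkmyt1) and 0.612 (Cdc25b). Cdc25b was therefore the member least like Cdk1.

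Markers of several other states and cell types differed with the genotype, whereas those of fibro-adipogenic progenitors overlapped. For comparison with the counts below, 4.65% of all tested genes rose and 7.67% fell. The 12 differentiated muscle markers, among them Myog and Ckm, summed to 64.9 to 162 TPM in cKO libraries and 8040 to 11700 TPM in fl/fl libraries, and 12 of 12 fell. The 6 myoblast markers, including Pax7 and Myod1, summed to 599 to 687 TPM against 1060 to 1420 TPM. Markers of the labelled cell type were thus detected in both groups. Of the 6, 2 fell in edgeR (Cdh15 and Des) and 3 in DESeq2. At an unadjusted edgeR p under 0.05, 3 were lower and 1 higher. Itga7 missed on the FDR only (log2 fold change -1.25 ± 0.27 SE, edgeR FDR = 0.0116), with every cKO library below every fl/fl library. Of the 6, Pax7 and Myf5 had a log2 fold change above 0, and Pax7, the satellite cell marker, passed the FDR threshold but not the fold threshold (0.94 ± 0.17 SE, edgeR FDR = 0.00624, no overlap between genotypes). The 6 macrophage markers summed to 135 to 262 TPM against 3.41 to 12.9 TPM, and 6 of 6 rose. Schwann cell markers summed to 6.78 to 8.93 TPM against 2.63 to 3.54 TPM (3 of 4 rose), and endothelial markers to 3.37 to 4.22 TPM against 0.92 to 3.01 TPM (1 of 5 rose). Fibro-adipogenic progenitor markers, at 359 to 506 TPM against 186 to 743 TPM, overlapped, with 0 of 6 called by edgeR (4 at an unadjusted p under 0.05, 2 in each direction) and 1 in each direction by DESeq2. No marker was at 0 in every library. According to the methods, cells carrying CD31, CD45, CD11b or Sca1, surface proteins of endothelial cells, leukocytes and fibro-adipogenic progenitors, were removed magnetically before plating. The part of these cell states and types in the results was not tested.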

How the data were processed

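RNA-seq of cultured mouse satellite cells was available for 3 cKO and 3 fl/fl libraries of the NF-YA study, grouped by the labels. The authors prepared stranded total RNA libraries from 500 ng of RNA, used bowtie2 to align reads to mm10 transcripts, and estimated levels by RSEM. Expected counts were deposited without normalization, and RSEM splits reads shared between transcripts. The deposited TPM values, scaled by the authors' software to effective length and a common sum, keep no depth.

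Expected counts were rounded, and of 35976 genes the 17348 that exceeded 10 counts in 2 or more libraries entered edgeR 4.0.16 under R 4.3.3 (TMM, quasi-likelihood test on genotype alone, FDR by Benjamini-Hochberg). CPM values are TMM-scaled. A gene was said to rise or fall where the FDR was below 0.01 and the log2 fold change exceeded 1 in size. The SE is the log2 fold change divided by the square root of F, and the 95% interval uses the t quantile of the test. Ratios and transcript shares were compared by exact two-sided permutation tests (scipy 1.17.1). The alternatives comprised DESeq2 1.42.0, edgeR with DESeq2 size factors, filterByExpr, no filter, limma 3.58.1 on log2(TPM + 1) and log2(TPM + 0.1), unrounded counts, an FDR under 0.05, glmTreat, a replicate block and leaving out each library.

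Named were the 10 genes, every gene of the 6 regulator lists that passed and the one with the highest TPM per list, Nfya, and the 3 genes most correlated with Cdk1. Further genes of those lists, the sex-linked genes and example markers were named after their values were seen. The 10 genes and all lists were chosen with earlier results of these data known. Depth limits precision: the 10 genes had at least 146 expected counts in every library.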

Additional observations from a re-analysis of the deposited data

How the results depend on the processing

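All 10 mitotic entry genes kept a log2 fold change above 0 in each of the 16 alternatives. Of the 160 values, 106 stayed on their side of the thresholds, 46 no longer passed and 8 now passed. The count of the 10 genes that rose was 6, and ranged from 0 to 7 when a library was left out. It was 0 with limma on log2(TPM + 1), with limma on log2(TPM + 0.1) and with glmTreat, in which 10, 10 and 3 of the 10 had an unadjusted p under 0.05. The regulators that rose numbered 12, ranged from 3 to 14 when a library was left out, and numbered 1 in both limma fits and 0 with glmTreat. Over all tested genes, 806 rose and 1331 fell. Leaving out a library gave 177 to 890 and 523 to 1684, limma on log2(TPM + 1) gave 231 and 704, limma on log2(TPM + 0.1) gave 361 risers, glmTreat gave 97 and 510, and an FDR under 0.05 gave 2025 that fell. With the mean of log2 TPM per gene in place of the summed TPM, the difference in Ccna2 over Ccnb1 and Ccnb2 went from -0.06 to 0.019, and that in the 10 genes over the S phase genes from -0.15 to -0.175. With expected counts the latter was 0.011. Without fl/fl replicate 1 the difference in the Cdc25 ratio was -0.054. The causes were not tested. Same-numbered libraries of the genotypes deviated together with correlations of 0.209, -0.103 and 0.0512. The value of 0.209, for replicate 1, was the highest between any cKO and any fl/fl library. Deviations were taken from the mean of 3 libraries, so these values cannot decide whether the numbers pair the libraries. With the replicate number as a block, 6 of the 10 genes rose, but Ccnb2 no longer passed (FDR = 0.0119) and Cdc25a now did (log2 fold change 1.01, FDR = 0.00809). Expected counts of Pkmyt1 and Cdc25c are the lowest of the 10, and 3 libraries per genotype with a wide spread in fl/fl limit every fold change.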
